A study of Mus musculus with 39 samples.

Results

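The genes described are 34 listed members of the fatty acid oxidation program and of the targets of PPAR-alpha, the nuclear receptor encoded by Ppara. They were taken by symbol, and all 34 were among the 16358 genes of the deposited count table. By role they comprised 3 regulators (Ppara, Ppargc1a and Creb3l3), 22 genes of mitochondrial products, 6 of peroxisomal products, and 3 other targets whose products act in the cytosol, at the cell surface or outside the cell (Acot1, Vnn1 and Angptl4). Crat, Ech1 and Eci2 are known in both organelles and were each placed in only 1 class. Duodenal RNA from mice was sequenced in 39 libraries to ask how leptin, the adipocyte hormone of energy balance, acts on gut expression when given into the brain, and whether oral antibiotics alter that response.

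All mice were wild-type C57BL/6 males of 8 weeks, and all carried a cannula placed into a lateral ventricle of the brain 3 days earlier. They drank water for 48 h, either plain or with ampicillin at 1 g/L and neomycin at 0.5 g/L. Leptin (3 µg) or saline was then injected through the cannula, and the duodenum was collected 2 h later after 2 h without food. On plain water there were 14 libraries after saline (Saline-water) and 13 after leptin (Leptin-water), and on antibiotic 6 after each injection (Saline-antibiotic, Leptin-antibiotic). The library names are of 2 kinds, here called set M, with 8 libraries on saline and 7 on leptin, all on water, and set MT, with 6 libraries in each of the 4 groups. What else distinguished the sets is not given in the sources used here.

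PPAR-alpha binds fatty acids and related lipids and, as a partner of the retinoid X receptor, switches on genes for the uptake, activation and breakdown of fatty acids. In mitochondria, acyl groups enter by the carnitine shuttle and are shortened by repeated rounds of dehydrogenation, hydration, oxidation and thiolysis, whereas peroxisomes take the very long and branched chains. Enterocytes meet a large load of dietary fatty acids and use this program beside the making of chylomicrons.

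The element that PPAR-alpha and its partner bind is a direct repeat of AGGTCA with any 1 base between, AGGTCANAGGTCA. RefSeq promoter windows on GRCm38.p6, running from 250 bases before to 50 after a transcript start, were matched by symbol for 29 of the 34 members, as 31 windows. Vnn1, Angptl4, Acaa2, Decr1 and Crat had no match. On either strand and with at most 2 mismatches, the element was found in 3 of the 31 windows (9.68%), beside 3.86% of all 32851 windows and 3.16% of the windows of genes in the count table. The 3 stretches are printed because they belong to a regulator, an electron carrier and a carnitine carrier described further on, with the matched 13 bases in capitals. Creb3l3 was matched in its second window, inside the gene and 209 bases before that start, at chr10:81092779-81092808 (minus strand). Etfa was matched 77 bases before its start, at chr9:55512299-55512328 (minus strand), with the element on the opposite strand. Slc25a20 was matched within its first exon, at chr9:108662134-108662163 (plus strand).
Creb3l3: ctgtaagtAGGGGAGAGGTCAcacagaccc
Etfa: gcacacccTTACCTTTGCCCTactcccaag
Slc25a20: ctgaatgtAGGTGAAAGGTCGgcggagccg
These are matches of letters and no evidence of binding. The core AGGTCA alone stood in 12.9% of member windows, 16.3% of all windows and 13.2% of the windows of genes in the count table. The glucocorticoid element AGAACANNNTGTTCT, allowing 2 mismatches, stood in 0 member windows. It stood in 1.84% of all windows and 1.16% of the windows of genes in the count table.

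Hadha and Hadhb, which encode the subunits of the mitochondrial trifunctional protein, start back to back on chromosome 5. The stretch between them, chr5:30155163-30155247, is printed on the plus strand, the strand of Hadhb, because the same 85 bases lie upstream of both genes.
Hadha and Hadhb: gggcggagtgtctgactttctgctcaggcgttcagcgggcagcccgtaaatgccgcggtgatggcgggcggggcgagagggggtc

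The libraries held 30207536 to 67870777 counts (median 48282125), and the members together took 0.413% to 0.654% of them. The lowest count of any member in any library was 157, so each was well measured. Set membership accounted for 92.1% of the first principal component of log2 CPM (counts scaled to library size), and this component held 26.6% of the variance, and comparisons were therefore made within a set or with set as a term. The 23 measured exocrine pancreas markers had a mean of at least 5.02 log2 CPM in 6 libraries, here called pancreas-high (Saline-antibiotic 1, 2 and 5, Leptin-antibiotic 3, and Leptin-water 6 and 10), against −1.55 to 3.31 in the others. They fall unevenly over the groups with antibiotic, 3 on saline and 1 on leptin, so results there are also given without them. The labels do not say that each library is a separate animal, so p-values measure the spread between these samples, and in whole tissue fewer cells of a type and less RNA per cell cannot be told apart. Markers of the tissue were also read. The 18 of 18 enterocyte markers measured had no 0 in any library and summed to between 20497 and 46058 CPM. Of the listed duodenum markers 9 of 10 were measured. So were 11 of 13 stomach and Brunner gland markers and 5 of 8 distal ileum markers, so presence alone does not tell the region. By level, the duodenum markers summed to 1737 to 3369 CPM over the libraries and the distal ileum markers to 99.1 to 177 CPM. Stomach and Brunner gland markers ranged widely, from 1754 to 43721 CPM. The part of the site sampled in the member values was not tested.

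The program was expressed over a wide range. RPKM is here CPM divided by the length, in kilobases, of all annotated exons of a gene after merging. This length ran from 1164 bases for Etfb to 10483 bases for Acsl1, and the order of the members depends on it. By this measure Ucp2, a mitochondrial carrier of the inner membrane, had the highest mean at 173 RPKM (range 108 to 270.2 over the 39 libraries). Acaa2, the mitochondrial thiolase of medium chains, followed at 151 RPKM, and Creb3l3, a membrane-bound transcription factor of liver and small intestine that works with PPAR-alpha, at 125 RPKM. Ppara itself stood at 38.2 RPKM (GRCm38 chromosome 15, 85734983 to 85802819, plus strand) and its coactivator Ppargc1a at 21.0 RPKM (chromosome 5, 51454250 to 51567726, minus strand). Among peroxisomal genes Ehhadh, the bifunctional hydratase and dehydrogenase, was highest at 76.2 RPKM. The lowest were Acot2, a mitochondrial acyl-CoA thioesterase, at 7.62 RPKM, Angptl4, a secreted inhibitor of lipoprotein lipase, at 6.604 RPKM, and Acot1, the cytosolic thioesterase, at 2.38 RPKM.

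**Figure D1:**
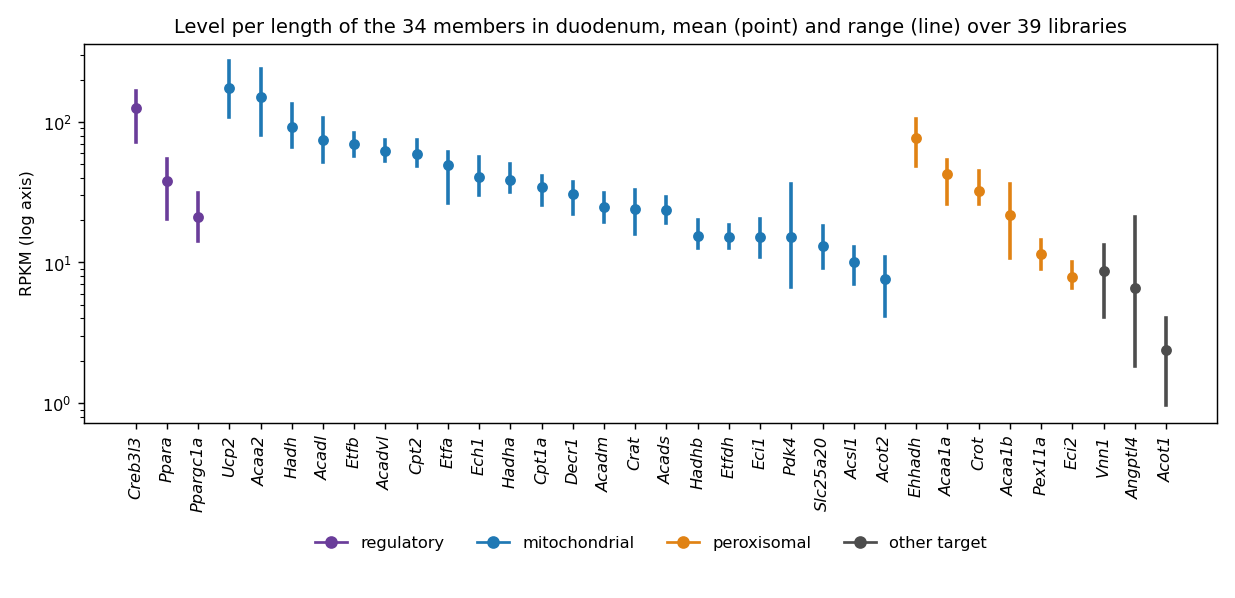
RPKM on a log axis for each member, grouped by role, with the mean as a point and the range over all 39 libraries as a line. Ucp2, Acaa2 and Creb3l3 have means above 100, Acot1 has a mean of 2.38, and Angptl4 and Pdk4 have the longest ranges.

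Spread between libraries of the same set and group also differed from member to member. Angptl4 had a coefficient of variation of 41.2% in set M and 53.4% in set MT, and Pdk4, the kinase that shuts down pyruvate dehydrogenase, 24.3% and 38.5%. The electron carriers Etfb and Etfdh were steadier. Etfb, the beta subunit of the flavoprotein that takes electrons from the acyl-CoA dehydrogenases, varied by 4.93% and 6.90%, and Etfdh, which passes them on to ubiquinone, by 6.69% and 7.92%. Enzymes of the oxidation spiral such as Hadh, the short-chain hydroxyacyl-CoA dehydrogenase (8.08% and 16.8%), and Acaa2 (13.9% and 17.3%) lay between. Detectable differences were accordingly smaller for Etfb than for Angptl4.

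Acaa1a and Acaa1b, the peroxisomal thiolases, share up to 35.5% of their 50-base words, and Acot1 and Acot2 up to 24.5%, so the split of reads within each pair is uncertain. Other genes overlap 58.2% of the annotated exon length of Etfb (Gm45233 and Mir7051) and 42.9% of that of Acadvl (Dvl2, on the opposite strand). The strand setting used for counting is not given in the sources used here, and the values of Acadvl are uncertain to that extent. The genes that overlap Etfb lie on its own strand, so its values are uncertain whatever that setting was.

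The first comparison asked whether leptin changed the program in mice on plain water. None of the 34 members passed an adjusted p of 0.05 in edgeR's quasi-likelihood test, the test behind every adjusted p given here unless another tool is named, fitted to all 27 libraries on water and allowing for set. Of all 16329 genes tested, 51 passed (0.312%). At an unadjusted p under 0.05 there was 1 member, Ppargc1a, beside 11.4% of all genes, and DESeq2 also called only Ppargc1a. In all, 15 members had a fold change above 0, and their median log2 fold change was −0.01, beside 47% of all genes and a median of −0.01.

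Ppargc1a encodes PGC-1alpha, the coactivator that couples PPAR-alpha and the estrogen-related receptors to mitochondrial biogenesis. In set M its lowest, median and highest values were 93.4, 122 and 169 CPM in Saline-water and 132, 155 and 170.3 CPM in Leptin-water. In set MT they were 98.1, 124 and 144 CPM in Saline-water and 114, 150.0 and 169 CPM in Leptin-water. All 7 Leptin-water libraries of set M and 5 of 6 in set MT lay above the Saline-water median, but the groups overlapped in both sets. The log2 fold change was 0.28 (SE 0.10) in set M, 0.27 (SE 0.12) in set MT and 0.27 (SE 0.08, edgeR adjusted p = 0.119) over both. Without Saline-water 5, the highest control, Ppargc1a passed the edgeR test.

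Behind the near-zero median over both sets, the members lay on different sides of 0 in the 2 sets. In set M 27 of 34 members had a fold change below 0 (median −0.08), and in set MT 30 of 34 had one above 0 (median 0.10). None passed the test in either set, where 0.0306% and 0% of all genes did. At an unadjusted p under 0.05, set M had 1 member higher and 7 lower, beside 8.41% and 6.49% of all genes, and set MT had 1 higher, beside 3.84%. Fold changes above 0 were 48.3% of all genes in set M and 49.5% in set MT, and the medians over all genes were −0.00. Saline-water 9, a control of set MT, had the lowest share of counts in members of any library (0.413%). Leptin on water within set MT was not refitted without it.

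Markers of other tissue layers also lay on different sides of 0 in the 2 sets. Smooth muscle markers had fold changes above 0 in 12 of 12 cases in set M (median 0.36) and in 0 of 12 in set MT (median −0.34). Enteric neuron and glia markers were above 0 in 12 of 13 cases in set M (median 0.47) and 1 of 13 in set MT (median −0.31). Stomach and Brunner gland markers went the other way, with 0 of 11 above 0 in set M (median −0.63) and 10 of 11 in set MT (median 0.60). Of these markers none was called in either set, and the part of tissue composition in the values of the members was not tested.

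Among the mitochondrial members, 20 of 22 were on the lower side in set M and 19 of 22 on the higher side in set MT. Cpt1a, which makes the acylcarnitines that enter mitochondria and sets the pace of oxidation (chromosome 19, 3322334 to 3385733, plus strand), had a lowest, median and highest value of 255, 291 and 315 CPM in Saline-water of set M and 226, 264 and 287 CPM in Leptin-water. In set MT the values were 196, 271 and 302 CPM in Saline-water and 265, 285 and 312 CPM in Leptin-water. All 7 Leptin-water libraries of set M lay below the Saline-water median, whereas 5 of 6 in set MT lay above it. Its log2 fold change was −0.16 (SE 0.06, edgeR adjusted p = 0.223) in set M and 0.13 (SE 0.09, edgeR adjusted p = 0.770) in set MT.

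Ucp2 gave 994, 1352 and 1543 CPM as lowest, median and highest in Saline-water of set M and 868, 958 and 1442 CPM in Leptin-water, a log2 fold change of −0.29 (SE 0.12, edgeR adjusted p = 0.285). In set MT it gave 757, 1124 and 1888 CPM in Saline-water and 844, 1169 and 1382 CPM in Leptin-water, a log2 fold change of −0.03 (SE 0.16). Ranges overlapped in both sets. Hadha stood at 311, 322 and 348 CPM in Saline-water of set M against 276, 308 and 334 CPM in Leptin-water, and 4 of the 7 leptin libraries lay below every control there. In set MT Hadha stood at 291, 335 and 437 CPM in Saline-water and 318, 359 and 409.9 CPM in Leptin-water, with no leptin library outside the range of the controls. The changes were −0.09 (SE 0.05, edgeR adjusted p = 0.354) and 0.08 (SE 0.09, edgeR adjusted p = 0.896).

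The difference between sets was tested as an interaction term. None of the 34 members passed it, beside 0.0429% of all genes, although 32 of 34 differences were above 0 (median 0.15, against 51.8% and a median of 0.01 over all genes) and 6 had an unadjusted p under 0.05, all above 0, beside 4.89% of all genes. With each library left out in turn, the member median ranged from 0.09, without Saline-water 9, to 0.20, and 26 to 34 members were above 0. The most negative and most positive leptin values of any member in set M were those of Acot1 (−0.49, SE 0.19) and Ppargc1a, and the difference between sets was 0.86 for Acot1 (SE 0.30, edgeR adjusted p = 0.302). For Cpt1a the difference was 0.30 (SE 0.11, edgeR adjusted p = 0.312) and for Ech1, a dienoyl-CoA isomerase, 0.34 (SE 0.12, edgeR adjusted p = 0.286).

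The second comparison, leptin against saline in mice on antibiotic, gave the highest member median of the treatment comparisons. All 34 had a fold change above 0, with a median log2 fold change of 0.23, beside 46.4% of all 16340 genes and a median of −0.02. Only Ppara passed the test, beside 0.514% of all genes in either direction and 0.459% higher. Another 15 members had an unadjusted p under 0.05, making 16 of 34 with all of them higher, beside 10% of all genes higher at that level. By role, the median was 0.42 for the 3 regulators, 0.17 for the 22 mitochondrial genes, 0.25 for the 6 peroxisomal genes and 0.30 for the 3 other targets.

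Ppara rose by 0.59 on the log2 scale (SE 0.14, edgeR adjusted p = 0.0481). The lowest, median and highest Saline-antibiotic libraries were at 94.8, 115 and 144 CPM and the Leptin-antibiotic libraries at 155, 170.4 and 208 CPM, giving means of 118 ± 18.1 and 176 ± 19.6 CPM (SD, n = 6 each). All 6 leptin libraries lay above all 6 controls, as they did for 1.6% of all genes. On plain water in set MT the ranges of Ppara overlapped, with 77.7, 142 and 173 CPM with saline and 133, 151 and 177 CPM with leptin, and a log2 fold change of 0.20 (SE 0.14, edgeR adjusted p = 0.764). Set M gave 119, 149 and 169.8 CPM with saline and 114, 147 and 189 CPM with leptin, a log2 fold change of 0.04 (SE 0.10).

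Creb3l3 (chromosome 10, 81084324 to 81098874, minus strand) had a lowest, median and highest value of 218, 335 and 388 CPM in Saline-antibiotic and 360.0, 428 and 497 CPM in Leptin-antibiotic. Of the 6 leptin libraries, 5 lay above every control, and the log2 fold change was 0.42 (SE 0.12, edgeR adjusted p = 0.1002). On water Creb3l3 was nearly level, with 315, 379 and 413 CPM on saline and 373, 383 and 399.9 CPM on leptin in set M. Set MT had 285, 392 and 432 CPM on saline and 352, 387 and 417 CPM on leptin. The ranges of Creb3l3 overlapped on water in both sets, and its log2 fold changes there were 0.04 (SE 0.06) and 0.05 (SE 0.12). Ppargc1a on antibiotic ran from 104 through a median of 134 to 176 CPM with saline and from 125 through 153 to 205 CPM with leptin, a log2 fold change of 0.23 (SE 0.12, edgeR adjusted p = 0.344).

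Angptl4 had the widest separation (chromosome 17, 33773750 to 33781830, minus strand). Its Saline-antibiotic libraries had a lowest, median and highest value of 8.45, 20.2 and 32.8 CPM, and its Leptin-antibiotic libraries 35.7, 45.2 and 74.1 CPM. Again all 6 leptin libraries lay above all 6 controls, and the log2 fold change was 1.34 (SE 0.41), yet the adjusted p was 0.111. On water the values in set MT were 10.8, 12.5 and 71.3 CPM with saline and 13.0, 25.8 and 40.1 CPM with leptin, where Saline-water 10 alone gave the 71.3. In set M they were 7.50, 9.83 and 21.7 CPM with saline and 6.49, 11.1 and 22.0 CPM with leptin. With that library left out of the fit, Angptl4 passed on antibiotic (edgeR adjusted p = 0.0179). The log2 fold changes on water, 0.24 (SE 0.41) in set MT and 0.15 (SE 0.26) in set M, were smaller than their errors. The other secreted or surface target, Vnn1, a pantetheinase, and Acot1 had log2 fold changes of 0.19 (SE 0.15) and 0.30 (SE 0.24) on antibiotic.

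**Figure D2:**
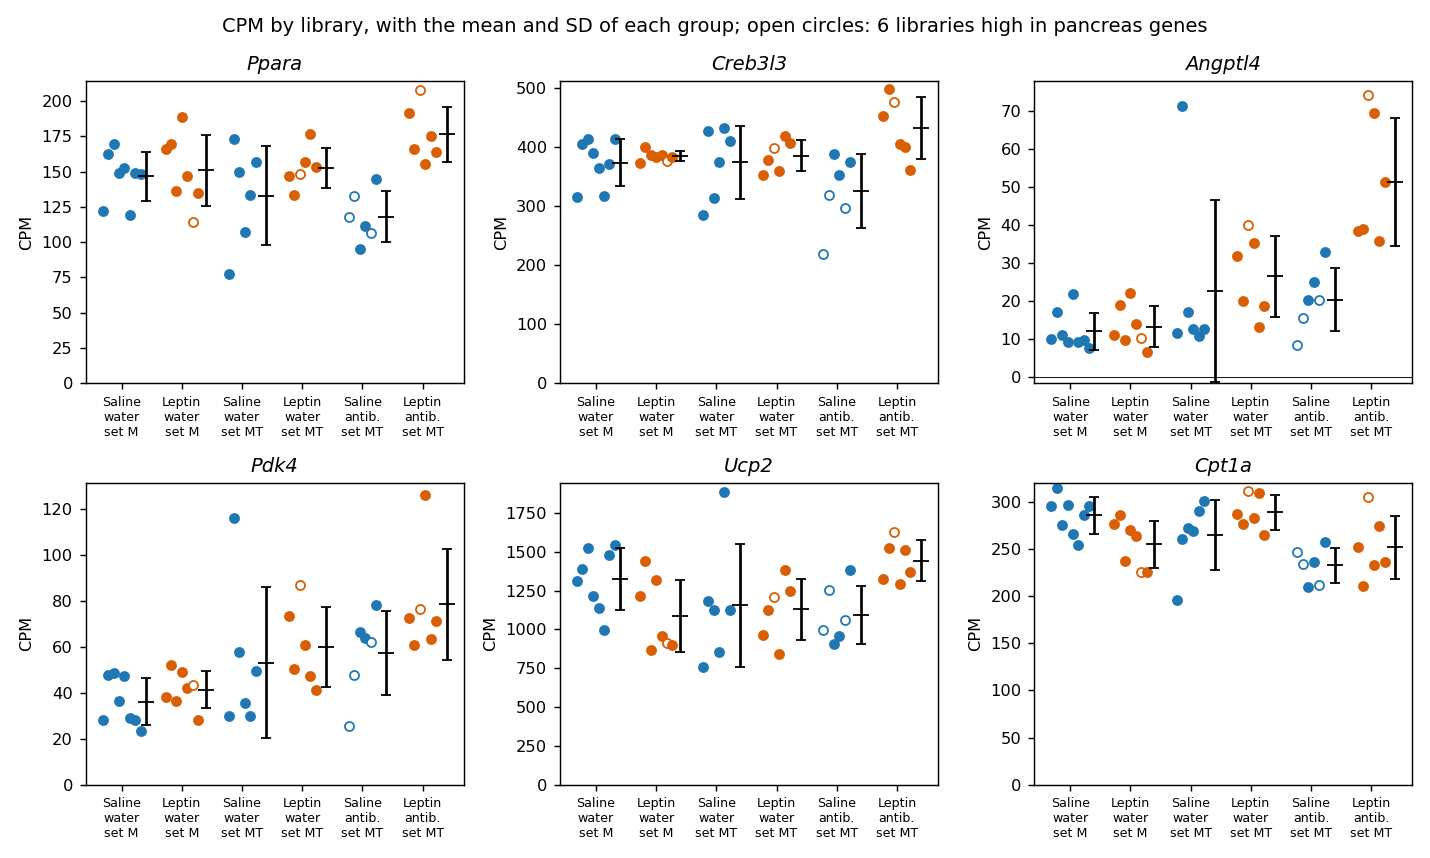
CPM of each library (points) with the mean and SD of its group (bars), for Ppara, Creb3l3, Angptl4, Pdk4, Ucp2 and Cpt1a in the 6 combinations of set, drinking water and injection; saline is blue, leptin orange, and open circles are the 6 pancreas-high libraries. For Ppara and Angptl4 every Leptin-antibiotic library stands above every Saline-antibiotic library, and 71.3 CPM of Angptl4 in Saline-water 10 stands apart.

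Among mitochondrial members on antibiotic, 9 of 22 had an unadjusted p under 0.05, and none passed the adjusted test. Pdk4 (chromosome 6, 5483351 to 5496309, minus strand) had a lowest, median and highest value of 25.5, 63.1 and 78.3 CPM with saline and 61.0, 72.0 and 126 CPM with leptin, a log2 fold change of 0.46 (SE 0.29, edgeR adjusted p = 0.417). Ucp2 had 908, 1030.2 and 1380.2 CPM with saline and 1291, 1441 and 1626 CPM with leptin, a log2 fold change of 0.41 (SE 0.16, edgeR adjusted p = 0.203). For Pdk4 only 1 leptin library exceeded all controls, and for Ucp2 there were 3. Acaa2 came next at 0.39 (SE 0.15, edgeR adjusted p = 0.185). Crat, which swaps acetyl groups between CoA and carnitine, was at 0.32 (SE 0.10, edgeR adjusted p = 0.137), and Decr1, the dienoyl-CoA reductase, at 0.25 (SE 0.08, edgeR adjusted p = 0.142).

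The 5 smallest mitochondrial values belonged to Cpt1a, the subunits of the trifunctional protein, and the electron carriers Etfdh and Etfb. Cpt1a had 210.2, 235 and 258 CPM with saline and 210.3, 244 and 305 CPM with leptin, a log2 fold change of 0.12 (SE 0.09, edgeR adjusted p = 0.493). Hadha had 279, 326 and 377 CPM with saline and 322, 340.1 and 432 CPM with leptin, also 0.12 (SE 0.09, edgeR adjusted p = 0.524), and its divergent neighbour Hadhb 0.12 (SE 0.09, edgeR adjusted p = 0.473). Etfdh and Etfb were at 0.11 (SE 0.07) and 0.08 (SE 0.06). The remaining mitochondrial members, from the acyl-CoA synthetase Acsl1 and the dehydrogenases Acadm, Acadl, Acadvl and Acads to Cpt2, Slc25a20, Hadh, Ech1, Eci1, Etfa and Acot2, lay between 0.14 and 0.34.

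Of the 6 peroxisomal members, 4 had an unadjusted p under 0.05. Pex11a, which promotes peroxisome division, was nearest the threshold at 0.26 (SE 0.08, edgeR adjusted p = 0.104). Ehhadh (chromosome 16, 21761287 to 21787807, minus strand) ran from 165 through a median of 213 to 261 CPM with saline and from 233 through 260.4 to 315 CPM with leptin, with 3 leptin libraries above every control and a log2 fold change of 0.29 (SE 0.12, edgeR adjusted p = 0.226). Acaa1b ran from 27.4 through 35.5 to 41.8 CPM with saline and from 34.3 through 41.2 to 45.8 CPM with leptin, a log2 fold change of 0.19 (SE 0.15, edgeR adjusted p = 0.518). Acaa1a and Eci2, an enoyl-CoA isomerase, both had log2 fold changes of 0.25, and Crot, which makes carnitine esters for export from the peroxisome, had 0.10.

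Other measured quantities moved with this comparison. The sum of the 18 enterocyte markers ran from 31649 to 46058 CPM in Leptin-antibiotic and from 20497 to 35048 CPM in Saline-antibiotic, and 18 of 18 had fold changes above 0 (median 0.33, none called). The enterocyte list holds Fabp2, which is also among the further pathway genes read below. Of 12 crypt and cell cycle markers 11 were lower (median −0.27, none called). Of the 18 glucocorticoid response genes tested, a list that also holds members of the program, 17 were higher and 4 were called (median 0.56). Exocrine pancreas markers had fold changes below 0 in 21 of 23 cases (median −1.09) and smooth muscle markers in 12 of 12 (median −0.13). Distal ileum markers were above 0 in 5 of 5 cases (median 0.29), 3 of them at an unadjusted p under 0.05, and none of these 3 lists had a gene called. The 6 measured adipocyte markers summed to 180.4 to 236 CPM with leptin and 138 to 228 CPM with saline, and Adipoq, Plin1, Lep and Retn were not in the table used. The part of these lists in the result was not tested, apart from the fit without the pancreas-high libraries.

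With the pancreas-high libraries left out, 5 of the 24 in this fit, no member and no gene passed, while edgeR gave 1331 genes an unadjusted p under 0.05. Of the 34 members only 1, Ppara, had an unadjusted p under 0.05 in this fit. The members above 0 were then 27 of 34, and their median was 0.10. Saline-antibiotic 1, 2 and 5 were among the libraries left out, so few controls remained. Ppara kept most of its size, at 0.55 (SE 0.19, edgeR adjusted p = 0.407), and Ucp2 was at 0.38 (SE 0.22). Creb3l3 went to 0.19 (SE 0.12), Angptl4 to 0.85 (SE 0.51), Pdk4 to 0.18 (SE 0.35) and Ehhadh to 0.04 (SE 0.13). Hadha had the lowest value of any member, −0.065 (SE 0.10). The median was 0.04 for the 22 mitochondrial members and 0.10 for the 6 peroxisomal members.

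**Figure D3:**
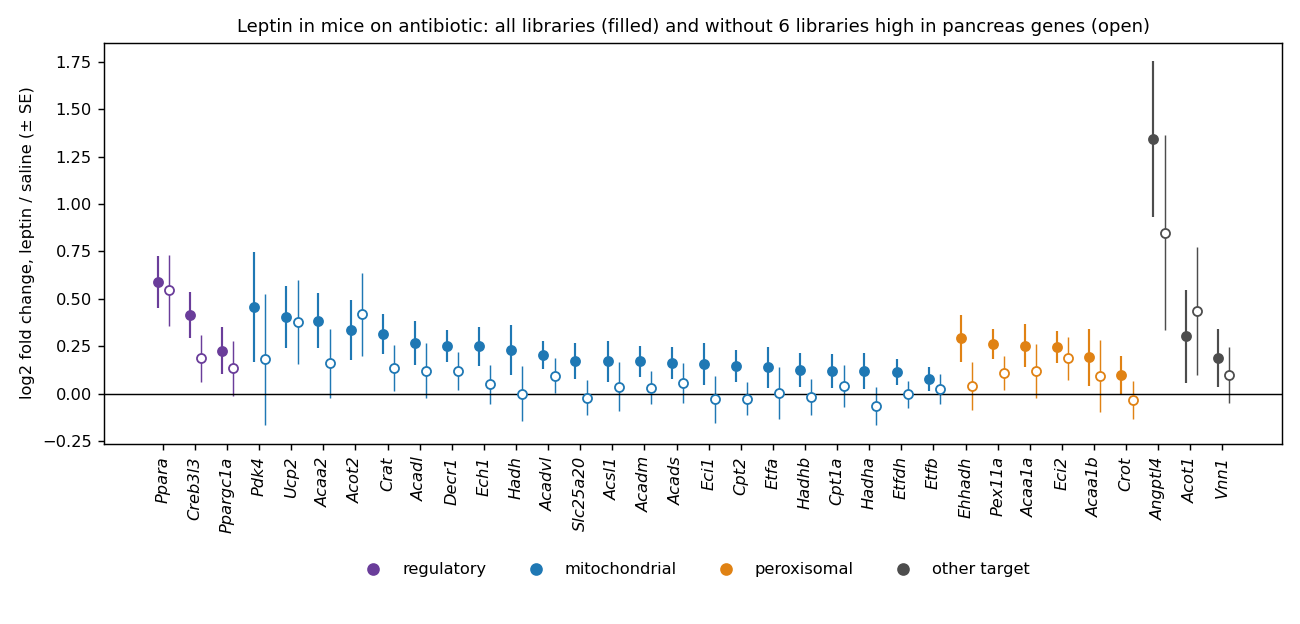
Log2 fold change of leptin over saline in mice on antibiotic, with its SE, for each member by role; filled points use all 24 libraries of set MT and open points leave out the pancreas-high libraries. All 34 filled points lie above 0 and 27 open points do, with Ppara at 0.59 and 0.55.

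The call on Ppara also rested on single libraries. It held in 5 of 24 fits that each left out 1 library, those without Saline-water 9, 10 or 13, Saline-antibiotic 6 or Leptin-antibiotic 6, and the adjusted p ranged from 0.0185 to 0.144. The log2 fold change itself stayed between 0.54 and 0.66. DESeq2 called 4 members (Ppara, adjusted p = 0.0034, with Creb3l3, Angptl4 and Pex11a), limma voom and DESeq2-type factors called Ppara alone, and upper quartile scaling or no filter called none.

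Whether leptin acted differently with and without antibiotic was tested within set MT as an interaction. No member and no gene passed, with 1043 genes (6.38%) at an unadjusted p under 0.05, and DESeq2 and limma voom called none either. The member differences were above 0 for 28 of 34 (median 0.12, beside 49.2% of all genes and a median of −0.00). Ppara had a difference of 0.39 (SE 0.19, edgeR adjusted p = 0.772), Creb3l3 0.36 (SE 0.17, edgeR adjusted p = 0.772), Ucp2 0.43 (SE 0.23, edgeR adjusted p = 0.772) and Angptl4 1.10 (SE 0.57, edgeR adjusted p = 0.772). Of the members only Creb3l3 had an unadjusted p under 0.05. A larger leptin response on antibiotic was therefore not shown for any member.

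Antibiotic was compared with water separately after saline and after leptin, and these comparisons share libraries with those above. After saline no member passed, beside 0.196% of all genes. At an unadjusted p under 0.05 there was 1 higher and 3 lower, beside 6.85% and 5.62% of all genes. In all, 13 of 34 were above 0, and the median was −0.07, beside 51.8% and 0.01 over all genes. With each library left out in turn, this median ranged from −0.14, without Saline-water 9, to −0.02. In the fit of all libraries the lowest values belonged to Vnn1 and Slc25a20. Slc25a20, the carrier that exchanges acylcarnitine for carnitine across the inner mitochondrial membrane (chromosome 9, 108662088 to 108684641, plus strand), had a lowest, median and highest value of 58.8, 72.7 and 78.4 CPM in Saline-water of set MT and 43.9, 53.3 and 59.3 CPM in Saline-antibiotic. In 4 of 6 antibiotic libraries it was below every control, and the log2 fold change was −0.42 (SE 0.09, edgeR adjusted p = 0.0582).

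Slc25a20 passed by DESeq2 (adjusted p = 0.0054), by limma voom (adjusted p = 0.0209), with both other scalings and with no filter, and in edgeR when Saline-water 9, Leptin-water 10 or 11 or Leptin-antibiotic 1 was left out. It did not pass with the pancreas-high libraries left out (−0.26, edgeR adjusted p = 0.175). After leptin Slc25a20 ran from 58.4 through 70.9 to 88.4 CPM on water and from 49.7 through 60.4 to 66.6 CPM on antibiotic, a log2 fold change of −0.27 (SE 0.09, edgeR adjusted p = 0.120). Vnn1 had 20.03, 23.9 and 31.2 CPM in Saline-water and 9.92, 18.5 and 21.2 CPM in Saline-antibiotic, a log2 fold change of −0.52 (SE 0.15, edgeR adjusted p = 0.149). DESeq2 called Vnn1 as well (adjusted p = 0.0486). Exocrine pancreas markers were themselves higher on antibiotic after saline, in 22 of 23 cases (median 3.06, 1 called), and their part in these values was not tested beyond leaving the libraries out.

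After leptin 23 of 34 members were above 0 (median 0.09, beside 47.8% and −0.01 over all genes), and Etfb alone passed, beside 2.28% of all genes in either direction and 1.85% higher. Etfb (chromosome 7, 43444083 to 43457800, plus strand) rose by 0.23 (SE 0.06, edgeR adjusted p = 0.0441). Its lowest, median and highest values were 67.4, 78.9 and 83.9 CPM in Leptin-water of set MT and 80.5, 90.8 and 96.4 CPM in Leptin-antibiotic, and 5 of 6 antibiotic libraries lay above every water library. After saline they were 66.4, 77.1 and 79.0 CPM on water and 77.6, 86.5 and 90.2 CPM on antibiotic, again with 5 of 6 above every control and a log2 fold change of 0.20 (SE 0.06, edgeR adjusted p = 0.183). Its partner Etfa had 0.15 (SE 0.11) after leptin and 0.22 (SE 0.11) after saline. The call on Etfb held in 9 of 24 fits that left out 1 library (Saline-water 10 or 13, Leptin-water 12 or 13, Saline-antibiotic 3, 5 or 6, Leptin-antibiotic 1 or 6), and not with the pancreas-high libraries left out (0.23, adjusted p = 0.0868). Enterocyte markers had fold changes above 0 after leptin in 18 of 18 cases (median 0.35, 1 called) and smooth muscle markers in 12 of 12 (median 0.34, 1 called), and their part was not tested.

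Antibiotic values of Ppara and Creb3l3 were below 0 after saline and above 0 after leptin. Ppara had a log2 fold change of −0.16 (SE 0.14) after saline and 0.22 (SE 0.14) after leptin, and Creb3l3 −0.19 (SE 0.12) and 0.17 (SE 0.12). The third regulator, Ppargc1a, was above 0 after both, at 0.17 (SE 0.12) and 0.13 (SE 0.12). The target Angptl4 was at −0.13 (SE 0.41) and 0.97 (SE 0.41, edgeR adjusted p = 0.191). Cpt1a was on the lower side after both, at −0.18 (SE 0.09, edgeR adjusted p = 0.422) and −0.19 (SE 0.09, edgeR adjusted p = 0.263). None of these passed the test.

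**Figure D4:**
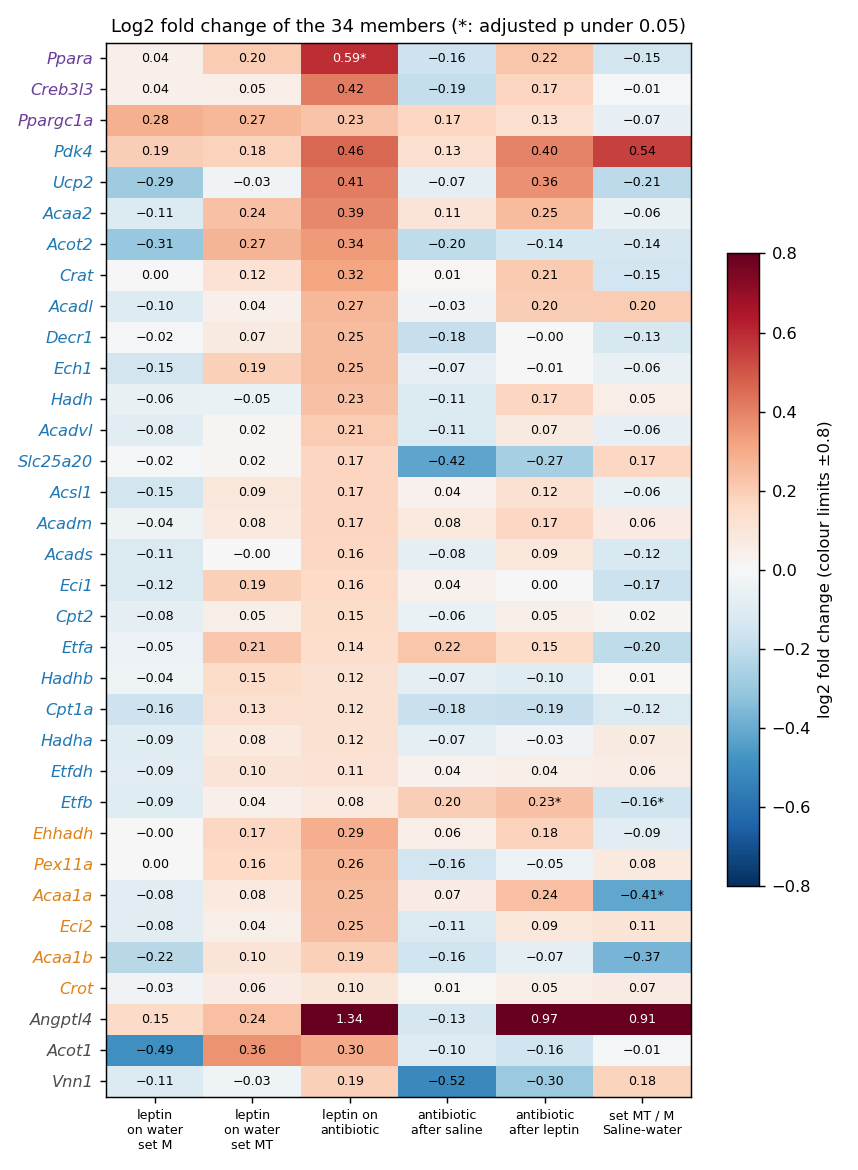
Log2 fold changes of the 34 members, by role, in 6 comparisons, with red for higher and blue for lower and asterisks for an edgeR adjusted p under 0.05. The column for leptin on antibiotic is above 0 throughout, the columns for leptin on water in sets M and MT lie mostly on different sides of 0, and 4 cells carry an asterisk.

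Saline-water libraries of the 2 sets differed in 17.3% of all genes, and set is not a treatment. Of the members 2 were lower in set MT, beside 8.97% of all genes lower, and none was higher. Acaa1a (chromosome 9, 119339676 to 119350299, plus strand) ran from 175 through a median of 216 to 236 CPM in set M and from 114 through 178 to 185 CPM in set MT, a log2 difference of −0.41 (SE 0.10, edgeR adjusted p = 0.0049). Acaa1b, with which it shares reads, ran from 30.7 through 51.8 to 71.3 CPM in set M and from 21.1 through 42.3 to 49.3 CPM in set MT, −0.37 (SE 0.16, edgeR adjusted p = 0.110). Etfb had 78.5, 83.0 and 88.9 CPM in set M and 66.4, 77.1 and 79.0 CPM in set MT, −0.16 (SE 0.05, edgeR adjusted p = 0.0342). Angptl4 and Pdk4 had the highest differences, 0.91 (SE 0.37, edgeR adjusted p = 0.0910) and 0.54 (SE 0.24, edgeR adjusted p = 0.122).

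Beyond treatment, Ppara varied together with some of the members chosen for this test from library to library. How many genes outside the program vary with Ppara as closely was not computed. The relations are therefore not shown to be particular to the program. After the mean of each set and group was removed, log2 CPM of Ppara was related to 8 other members in set M (n = 15) and in set MT (n = 24). Libraries were permuted within their groups, 100000 times and two-sided, and p was adjusted over the 16 relations. Ehhadh had the closest relation in set M (Pearson r = 0.81, adjusted permutation p = 0.0082; Spearman rho = 0.74, adjusted permutation p = 0.0137) and also passed in set MT (r = 0.60, adjusted permutation p = 0.0271; rho = 0.49, adjusted permutation p = 0.0416). Cpt1a had r = 0.67 in set M (adjusted permutation p = 0.0361; rho = 0.68, adjusted permutation p = 0.0288) and r = 0.73 in set MT (adjusted permutation p = 0.0082; rho = 0.67, adjusted permutation p = 0.0137). Ucp2 and Hadha passed in both sets, with r of 0.76 and 0.64 (rho 0.78 and 0.61) in set M, against 0.61 and 0.54 (rho 0.64 and 0.60) in set MT, all with an adjusted permutation p of at most 0.0440.

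Creb3l3 (r = 0.60, rho = 0.49) and Angptl4 (r = 0.59, rho = 0.69) passed by r in set M, and Creb3l3 did not pass there by rho (adjusted permutation p = 0.0833). In set MT their r was 0.38 and 0.32, and the difference between sets was not tested. Pdk4 missed the threshold in both sets by r (0.53 and 0.35), although its rho of 0.63 passed in set M. Ppargc1a had r = 0.02 in set M and 0.34 in set MT. When the 2 libraries farthest from the median of Ppara were left out (Saline-water 6 and Leptin-water 6 in set M, Saline-water 9 and 10 in set MT), only Cpt1a in set MT still passed (r = 0.66, adjusted permutation p = 0.0086, n = 22). The r of Cpt1a in set M went to 0.48 and that of Ehhadh in set MT to 0.34, so these 2 relations rest in part on the libraries left out. In set M r was then 0.71 for Ehhadh, 0.69 for Ucp2, 0.67 for Pdk4, 0.62 for Angptl4, 0.58 for Hadha and 0.54 for Creb3l3, with adjusted permutation p from 0.0678 to 0.0999 over 13 libraries. In set MT it was 0.51 for Ucp2 and 0.50 for Hadha (adjusted permutation p = 0.0743 for both). Enterocyte content and depth are shared by all genes of a library, and their part was not tested.

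A further 100 genes of the same pathway (receptors and cofactors, fatty acid entry, mitochondrial oxidation and ketogenesis, peroxisomes, and omega oxidation) were read beside the members. None passed for leptin on water, for antibiotic after saline or in either interaction. For leptin on water 45 were above 0, beside 47% of all genes, and for antibiotic after saline 53 were, beside 51.8%. For leptin on antibiotic 72 were above 0, beside 46.4% of all genes. Of the 100 genes 1 was called higher there, beside 0.459% of all genes. This was Esrra, the estrogen-related receptor alpha that partners PGC-1alpha, with 171, 177 and 188 CPM as lowest, median and highest in Saline-antibiotic and 205, 219.6 and 249.6 CPM in Leptin-antibiotic. Esrra rose by 0.34 (SE 0.07, edgeR adjusted p = 0.0282), with 6 of 6 leptin libraries above every control. On water in set MT Esrra ran from 155 through 186 to 201 CPM with saline and from 165 through 177 to 199 CPM with leptin. The call on Esrra was lost without Saline-antibiotic 1, 4 or 5 or Leptin-antibiotic 1, 2 or 3 (edgeR adjusted p up to 0.119). It was also lost with upper quartile scaling (edgeR adjusted p = 0.0505) and with the pancreas-high libraries left out (0.30, edgeR adjusted p = 0.363). Over all alternative fits the call was lost in 9 and kept in 23.

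After leptin, 5 pathway genes were called higher with antibiotic, beside 1.85% of all genes. They were Esrra by 0.33 (SE 0.07, edgeR adjusted p = 0.0155), Acsl6, an acyl-CoA synthetase, by 1.03 (SE 0.24, edgeR adjusted p = 0.0226), Lipe, the hormone-sensitive lipase, by 0.37 (SE 0.07, edgeR adjusted p = 0.0082), Pccb, a subunit of propionyl-CoA carboxylase, by 0.41 (SE 0.09, edgeR adjusted p = 0.0168), and Pex16, a peroxisome assembly factor, by 0.32 (SE 0.08, edgeR adjusted p = 0.0330). Lipe and Pccb also passed with the pancreas-high libraries left out, and the other 3 did not. Lipe is also an adipocyte marker. Its mean was 47.3 CPM in Leptin-water and 60.8 CPM in Leptin-antibiotic of set MT, and 57.5 CPM in Leptin-water of set M. Leaving out Leptin-water 8, 9 or 11 ended the calls on Esrra, Acsl6, Pccb and Pex16. So did Leptin-antibiotic 2 for Esrra, Acsl6 and Pex16, Leptin-antibiotic 3 for Acsl6, Pccb and Pex16, and Saline-water 12, Leptin-water 10 or Saline-antibiotic 4 for Pex16. The call on Lipe held in all 24 such fits. Over all alternative fits the call on Pex16 was lost in 10 and kept in 20.

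Between the sets in Saline-water, 3 of the 100 pathway genes were higher in set MT, beside 8.33% of all genes, and 14 were lower, beside 8.97%. Lower genes included Ppard, the delta receptor of the same family, at −0.38 (SE 0.09, edgeR adjusted p = 0.0037), Lpin1, a coactivator and phosphatidate phosphatase, at −0.69 (SE 0.16, edgeR adjusted p = 0.0040), and Mlycd, malonyl-CoA decarboxylase, at −0.32 (SE 0.07, edgeR adjusted p = 0.0023). Prkaa1, a catalytic subunit of the AMP-activated kinase, was higher at 0.19 (SE 0.04, edgeR adjusted p = 0.0030).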

How the data were processed

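Duodenal RNA (150 ng per library, ribosomal RNA removed, strand-specific, paired reads of 50 bases, per the labels' protocols) was sequenced in 39 libraries. The authors deposited a filtered table of read counts per gene symbol, not normalised, for 16358 genes. FastQC, HISAT2, featureCounts, edgeR 3.42.0 and mm10 appear in the submitters' processing notes. Which annotation, filter and strand setting made the deposited counts is not given in the sources used here.

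For this work the quasi-likelihood F test of edgeR 4.0.16, run in R 4.3.3 with TMM factors and filterByExpr, was applied to the counts. Benjamini-Hochberg adjustment covered every gene tested, at a threshold of 0.05, and each SE was derived from the fold change and its F statistic. Leptin on water was fitted to 27 libraries with a set term, and all antibiotic comparisons to the 24 libraries of set MT together. CPM is after TMM scaling, log2 CPM used a prior count of 2, and RPKM and positions used GENCODE vM21 exons (GRCm38) matched by symbol. The tests were run on simulated counts with changes larger than most of those described here. Recovery of smaller changes was not checked. Of 109 pairs of libraries compared inside their groups, 0 were identical, and the chi-square per degree of freedom was at least 19.7.

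The members and gene lists, those of the pathway and the markers included, were chosen with earlier results of these data known. Values by library were given for 10 key members and any member past the threshold, and the text could also name the 3 highest and 3 lowest members of a comparison, and pathway genes past the threshold or at either extreme. Other members were added after their values were seen. Alternatives were DESeq2 1.42.0, limma 3.58.1 voom with quality weights, other scalings, no filter, other samples or terms, and each library left out in turn. A result on 1 pathway gene is not reported here.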

Additional observations from a re-analysis of the deposited data

Results flagged for a closer look

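In 204 groups of values (34 members in 6 combinations of set and group), the highest or lowest library lay apart from the rest by Dixon's 95% criterion 12 times. Chance marks about 1 group in 20. Angptl4 in Saline-water 10 was at 71.3 CPM against 17.0 CPM for the next library of set MT, and Pdk4 in Leptin-antibiotic 4 was at 126 CPM against 76.6 CPM. Cpt1a was lowest in Saline-water 9 at 196 CPM, and Acaa1b was lowest in the same library at 21.1 CPM and, in set M, in Saline-water 6 at 30.7 CPM. Without a flag, Saline-water 9 was also the lowest of all 39 libraries for Ppara at 77.7 CPM and Ucp2 at 757 CPM. The same held for Acaa2 at 123 CPM, Hadh at 331 CPM and Ehhadh at 145 CPM. That library was not low for every member, with Acadl at 168 CPM against a median of 146 CPM over all libraries. Etfa was lowest in Saline-water 13 at 48.8 CPM against 81.5 CPM for the next. Acsl1 at 133 CPM and Acads at 57.6 CPM were highest in Saline-antibiotic 6, and Acot1 was lowest in Saline-antibiotic 3 at 3.77 CPM.

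In pancreas-high libraries there were 3 of the 12, namely Hadha at 432 CPM and Ech1 at 128.5 CPM in Leptin-antibiotic 3 and Crot at 243 CPM in Leptin-water 10. The part of pancreas RNA in these values was not tested.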

How the results depend on the processing

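The number of members called changed as follows. DESeq2 called 1 member for leptin on water, 4 for leptin on antibiotic and 2 for antibiotic after saline. After saline limma voom, upper quartile scaling, DESeq2-type factors and no filter each called 1. For leptin on antibiotic upper quartile scaling, no filter and the fit without the pancreas-high libraries called 0, and for antibiotic after leptin the same 3 alternatives called 0. Without those libraries Hadha reversed to −0.065. Leaving out single libraries gave 0 to 2 members for leptin on antibiotic and 0 to 1 for leptin on water and for antibiotic after saline or leptin. It gave 0 for both interactions. Over all genes these fits called 9 to 183 for leptin on antibiotic and 10 to 125 for leptin on water. For antibiotic they called 14 to 100 after saline and 73 to 650 after leptin. The relation of Ppara in set MT without its 2 farthest libraries reversed for Angptl4 (r = −0.026) and Pdk4 (r = −0.011). The causes were not tested. Counts over all genes moved more. Leptin on antibiotic had 84 genes, against 443 by DESeq2, 51 with upper quartile scaling and 0 without the pancreas-high libraries. Leptin on water had 51, against 173 by DESeq2, 133 by limma voom, 33 without those libraries and 20 with no term for set. Antibiotic after saline had 32, against 183, 81 and 17 by DESeq2, limma voom and without those libraries, and antibiotic after leptin had 372, against 780, 950 and 205, and 224 with upper quartile scaling.

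Replicate numbers did not pair the samples. Deviations of libraries with the same number correlated above 0.1 in 1 of 6 pairs on antibiotic and 4 of 13 on water, and a library correlated best with its own number in 1 and 0 cases. With a replicate block leptin on antibiotic had 1 member called, Angptl4 (1.38, adjusted p = 0.0462), in place of Ppara (0.58, adjusted p = 0.108), and 13 genes in all, and leptin on water had 0 members. The alternative without the pancreas-high libraries was added after seeing the data for the comparisons within a set and between sets, where no count of members changed. With 6 libraries a group, changes of low or variable genes such as Angptl4 could be missed.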
